A study of Mus musculus with 16 samples.

Results

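Accessible chromatin around 9 cadherin and cell adhesion genes (Cdh15, Cdh2, Cdh11, Cdh23, Cadm4, Itga3, Mcam, Ncam1 and Vcam1) was followed with ATAC-seq, an assay whose Tn5 transposase tags DNA that is not packed into nucleosomes. The members were the peaks inside each gene body (GENCODE M21) plus 20 kb on either side. Overlapping peaks of the 14 libraries compared were merged into 80290 regions genome-wide, of which 105 lay in these windows. The cells were C2C12 iMyoD1, mouse myoblasts of a polyclonal line that carry a doxycycline-inducible (TRE3GS promoter) Halo-tagged MyoD1 beside their own Myod1 gene. All groups, controls included, were of this line. The 4 groups were GM no dox and GM +dox (growth medium, 75000 cells seeded per well, vehicle or doxycycline for 24 h, 4 libraries each) and DM no dox and DM +dox (low serum for 24 h, 300000 cells seeded per well, vehicle or doxycycline over the same time, 3 libraries each). Medium and seeding density changed together and cannot be told apart. The first replicate of both DM groups was left out, following the methods of the study. The samples were bulk cultures, so a change in every cell and a change in part of the cells cannot be told apart.

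Cadherins are calcium-dependent transmembrane proteins that join neighbouring cells by binding each other across the gap, with catenins linking their tails to actin. Cdh15 (M-cadherin) and Cdh2 (N-cadherin) are the classical cadherins of myoblasts, Cdh11 is a cadherin of mesenchymal cells, and Cdh23 is a long cadherin best known from the tip links of inner ear hair cells. Cadm4, Mcam, Ncam1 and Vcam1 are immunoglobulin-type adhesion molecules, Vcam1 being a ligand of the α4β1 integrin, and Itga3 is an integrin subunit that pairs with β1 to bind laminin.

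The libraries held between 14710 and 58587 peaks, over a lowest background of 0.339 to 1.13 fragments per base, so a missing peak in a short list says that it was not detectable at that depth. For comparisons of presence, the 14710 peaks with the highest −log10 p were also taken from every list, which is as many as the shortest one (GM no dox replicate 1) held. Of the myoblast markers, Myod1 and Chrna1 had a start-site peak in all 14 libraries, Des in 13, Pax7 in 9, Myf6 in 7, Myf5 in 6 and Myog in 0. Of the markers of other cell types, Ptprc, Epcam, Alb and Sox10 had no start-site peak in any of the 14 libraries, and Pecam1, an endothelial marker, had one in 8.

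The 4 sequences shown are those of the regions on which the results turn, each 201 bases centred on the median summit, from the plus strand of GRCm38 (the assembly behind mm10). Capitals mark CAGCTG (the E-box preferred by MyoD1), CAGGTG (another E-box), TGANTCA (the AP-1 site) and CATTCC (the M-CAT site of TEAD factors), each searched on both strands and counted on its own where motifs overlap. The Cdh15 sequence is chr8:122851759-122851959, in the first intron. The Cdh23 sequence is chr10:60395717-60395917, in an intron 300.7 kb into the gene. The Cadm4 sequence is chr7:24470472-24470672, upstream of the gene, and the Ncam1 sequence is chr9:49533518-49533718, in an intron 265.3 kb into the gene.
Cdh15 intron: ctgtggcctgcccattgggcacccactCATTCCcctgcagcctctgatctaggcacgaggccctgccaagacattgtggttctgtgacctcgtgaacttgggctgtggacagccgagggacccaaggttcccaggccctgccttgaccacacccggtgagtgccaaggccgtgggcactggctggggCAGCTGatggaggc
Cdh23 intron: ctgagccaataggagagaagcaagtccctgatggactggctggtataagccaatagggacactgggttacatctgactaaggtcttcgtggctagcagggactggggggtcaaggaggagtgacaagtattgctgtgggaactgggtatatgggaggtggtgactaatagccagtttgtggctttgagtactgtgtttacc
Cadm4 upstream: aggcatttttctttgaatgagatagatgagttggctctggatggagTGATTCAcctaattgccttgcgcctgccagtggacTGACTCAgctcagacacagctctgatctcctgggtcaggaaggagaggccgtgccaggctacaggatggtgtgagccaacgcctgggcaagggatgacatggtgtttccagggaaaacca
Ncam1 intron: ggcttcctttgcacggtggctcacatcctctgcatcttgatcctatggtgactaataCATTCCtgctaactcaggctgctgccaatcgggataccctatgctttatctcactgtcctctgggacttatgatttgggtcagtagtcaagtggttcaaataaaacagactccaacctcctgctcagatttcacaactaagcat

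The Cdh15 sequence held 1 CAGCTG and 1 CATTCC, the Cadm4 sequence 2 TGANTCA, the Ncam1 sequence 1 CATTCC and the Cdh23 sequence none of these letters. Over the 105 member regions, CAGCTG stood within 100 bp of the summit in 23 (21.9%) against 19.8% of all 80290 regions, CAGGTG in 10 (9.52%) against 10.7%, TGANTCA in 31 (29.5%) against 32.1% and CATTCC in 19 (18.1%) against 17.6%. The adhesion windows therefore carried these motifs about as often as accessible regions elsewhere.

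Among the 105 regions, 16 were within 1 kb of a start site of the member itself, 7 within 1 kb of another gene's start site only and 82 away from every start site. By position of the summit, 67 were in introns, 4 in exons, 23 upstream and 11 downstream of the gene. A peak was found in all 14 libraries at 14 regions (13.3%, against 13.8% of all regions) and in a single library at 20 (19.0%, against 23.5%). In the lists of equal length, 37 of the 105 regions had a peak in any library and 2 had one in all 14, namely the Cdh23 intron and the Cadm4 upstream region.

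**Figure D1:**
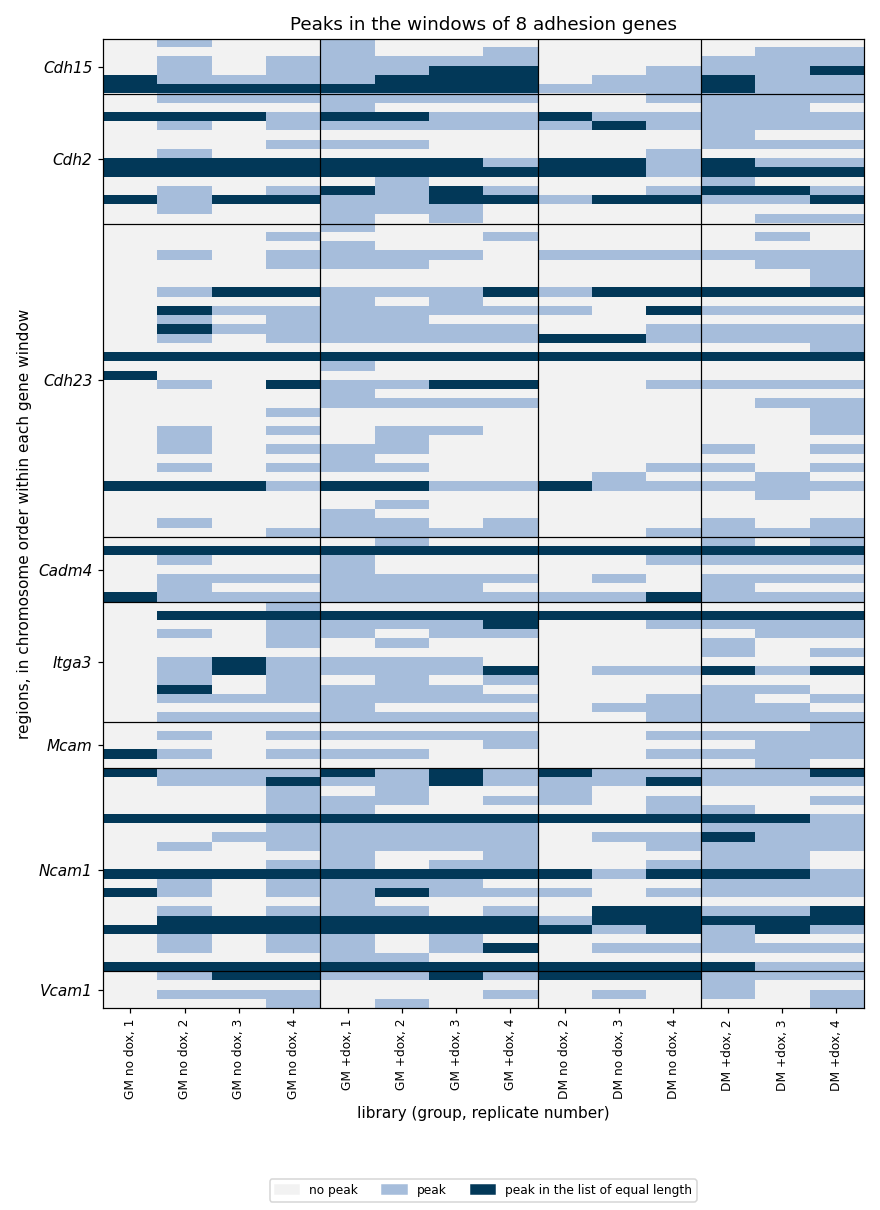
Each row is 1 of the 105 regions, grouped by gene in chromosome order, and each column is 1 of the 14 libraries. Pale blue marks a peak and dark blue a peak that is also in the list of equal length; 14 rows are filled in every library, and 2 of them are dark throughout.

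The genes differed widely in how much accessible chromatin their windows held. Cdh11 had no peak in its window of 193.5 kb in any of the 16 lists. Cdh23 held 34 regions in 434 kb, Ncam1 22 in 337 kb, Cdh2 14 in 260.4 kb, Itga3 13 in 72.3 kb, Cadm4 7 in 62.5 kb, Cdh15 6 in 59.4 kb, Mcam 5 in 48.3 kb and Vcam1 4 in 59.7 kb. Per 100 kb of window, Itga3 was the densest with 17.97 regions and Cdh2 the sparsest of those with any, with 5.38.

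At the members' own start sites, only the Cdh2 region was found in all 14 libraries. The most often found start-site region of Itga3 and of Cdh23 had a peak in 12 libraries, that of Cadm4 in 11, those of Cdh15 and Ncam1 in 10, that of Mcam in 9 and that of Vcam1 in 3. The Cdh23 region found in 12 lies at a start site inside the gene, and the one 0.7 kb upstream of the principal start site had a peak in 9 libraries. In the lists of equal length the start-site region was present in 8 libraries for Cdh2, 4 for Itga3, 3 for Cdh15, 2 for Cdh23, 1 for Ncam1 and for Mcam, and 0 for Cadm4 and Vcam1. The gene whose tested start-site region varied most like that of Cdh2 was Ptpre, with a root-mean-square difference of 0.108 in log2 fold enrichment over 14 libraries, against a median of 0.29 over 5279 regions compared. It is the smallest of the 5279 and close to the next, 0.112 at Mfsd11 and Srsf2 and 0.113 at Socs5.

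Between groups, the lists of equal length held a peak at 16 to 18 of the 105 regions in GM no dox, 15 to 19 in GM +dox, 14 to 15 in DM no dox and 10 to 15 in DM +dox. The DM libraries were thus at the low end. The GM no dox and DM no dox ranges did not overlap, while the ranges with dox met at 15. In the same lists the share of all regions with a peak was between 18.04% and 18.29% in every library. The equal length of the lists largely fixes that share, so it is no test of the member counts.

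The first question was whether dox, given to raise MyoD1, changed accessibility at these genes. By the paper's account, only part of the nuclei of this line had detectable Halo-MyoD1 at 24 h of dox. No line without the transgene was among these samples, so dox itself and MyoD1 cannot be told apart. No member region passed the test with dox for fold enrichment or summit pileup, except 1 region for pileup in DM when the replicate number was a block. Fold enrichment over the local background was compared at the 11046 regions with a peak in all 14 libraries, 14 of them in these windows, with limma on the log2 scale and Benjamini-Hochberg adjustment over all 11046. In GM, 0 of the 14 passed at an adjusted p of 0.05 (0% of all regions did) and 0 had an unadjusted p under 0.05, the changes running from −0.23 to 0.19 on the log2 scale. In DM, 0 of the 14 passed (0.0181% of all), 0 had an unadjusted p under 0.05, and the changes ran from −0.32 to 0.23. The median change over the 14 was −0.0012 in GM and −0.13 in DM, against −0.0028 and 0.00069 over all regions. With dox, 7 of the 14 were lower in GM and 11 in DM (50.8% and 49.9% of all regions were). No member passed in the interaction of dox and medium either, nor did any of the 11046 regions (278 had an unadjusted p under 0.05, none of them a member).

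Summit pileup, the number of fragments over the summit before division by the local background, was solved for at every peak. Only whole numbers were searched, and they matched the deposited −log10 p to under 0.01 in 100% of peaks. Pileup was fitted in the same way. It gave 0 of 14 members with dox in GM (0.00905% of all regions) and 0 of 14 in DM (0.118% of all), with 1 unadjusted p under 0.05 in each. In both media that region was the Cdh15 intron, with a log2 change of 0.48 (SE 0.23, limma adjusted p = 0.998) in GM and 0.60 (SE 0.26, adjusted p = 0.511) in DM. With the replicate number as a block, the DM value was 0.60 (SE 0.18, limma adjusted p = 0.035), so this call depends on the pairing. It is 1 of 14 members in a fit that called 6.04% of all regions, and the same fit gave 0 members in GM (0.987% of all). The DM libraries had 30.04, 20.3 and 19.0 scaled fragments at the Cdh15 intron without dox and 48.8, 26.3 and 31.6 with dox, and the groups overlapped.

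All-or-none regions, with a peak in every library of one group and in none of the other, were few. In lists of equal length, dox in GM gave 0 members higher (0.163% of all regions with a peak in that comparison) and 0 lower (0.124%) of 33, and dox in DM 0 higher (0.82%) and 1 lower (0.787%) of 28. The 1 was an intron of Vcam1 (chr3:116113628-116114996, 15.0 kb from the start site), present in 3 of 3 DM no dox lists and 0 of 3 DM +dox lists. The region had a peak in all 6 full lists. Its fold enrichment, scaled so that the median tested region matched between libraries, was 11.7, 11.03 and 10.7 in DM no dox. In DM +dox it was 9.23, 10.2 and 8.69. The groups did not overlap on this scale, and the DM +dox libraries were lower. The region was picked by rank in these same libraries, so this separation adds no support. They did overlap in the values as deposited, which were 9.71, 8.71 and 11.7 against 13.2, 12.3 and 10.2. In the 7 GM libraries with a peak the scaled value was 7.88 to 12.7, a range that spans both DM groups.

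In the full lists, dox in GM gave 1 member higher (0.446% of all) and 0 lower (0%) of 94, and dox in DM 4 higher (5.37%) and 0 lower (0.0142%) of 86. The DM share of 4.65% was near that of all regions. The 1 in GM was an intron of Cdh23 (chr10:60483580-60483892), with a peak in 4 of 4 GM +dox lists and 0 of 4 GM no dox lists, none of them in a list of equal length. The 4 in DM were 12.8 kb upstream of Cdh15, in an intron of Cdh2 and in 2 introns of Ncam1. The DM +dox lists held 46241 to 51340 peaks against 23690 to 40599 in DM no dox, and the part of list length in these counts was not tested.

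The second question was what changed when cells moved to low serum. The Cdh15 intron was lower in every DM group. In the lists of equal length it was present in 4 of 4 GM no dox and 4 of 4 GM +dox libraries, in 0 of 3 DM no dox and in 1 of 3 DM +dox, although it had a peak in all 14 full lists. Fold enrichment, scaled so that the median region matched between libraries, was 8.12, 8.43, 6.82 and 7.57 in GM no dox. It was 8.14, 8.56, 7.52 and 7.52 in GM +dox. The DM libraries had 6.22, 5.84 and 4.10 without dox. They had 6.62, 4.57 and 5.00 with dox. All GM libraries were above all DM libraries. This intron was named in part for its all-or-none pattern without dox, so the separation in that arm adds no support.

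The fold enrichment of the Cdh15 intron differed between DM and GM by −0.54 on the log2 scale without dox (SE 0.19, limma adjusted p = 0.252) and by −0.57 with dox (SE 0.19, adjusted p = 0.292), neither of which passed. Summit pileup at the same region was 60.3, 51.3, 43.0 and 46.1 scaled fragments in GM no dox and 30.04, 20.3 and 19.0 in DM no dox. With dox it was 81.8, 88.1, 56.2 and 56.7 in GM and 48.8, 26.3 and 31.6 in DM. The GM and DM values did not overlap within either arm. On the log2 scale the pileup fell by 1.14 without dox (SE 0.24, limma adjusted p = 0.0147) and by 1.01 with dox (SE 0.24, adjusted p = 0.0181). With the replicate number as a block, the changes were −1.05 (limma adjusted p = 2.5e-05) and −0.92 (limma adjusted p = 0.00011). That fit called 14% and 15.5% of all regions.

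Fold enrichment and pileup differ in their divisor, and at Cdh15 the local background moved as well. It was 4.36 to 13.4 times the library's lowest background in GM no dox, 7.17 to 20.5 times in GM +dox, 2.29 to 5.71 times in DM no dox and 7.32 to 12.7 times in DM +dox. The unscaled summit pileup in DM no dox was 22, 9 and 26 fragments, which limits the precision there. Without the block, leaving out either DM no dox replicate 3 or 4 ended the pileup call without dox (limma adjusted p = 0.0684 and 0.0909). With dox that call was lost without GM +dox replicate 1 or 2 or DM +dox replicate 3 or 4 (adjusted p from 0.0711 to 0.124).

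**Figure D2:**
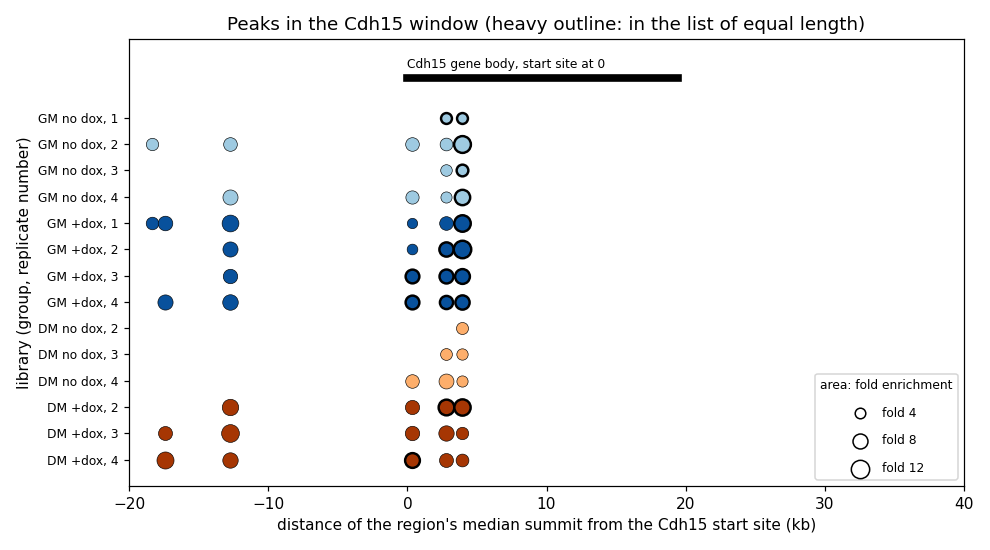
Each circle is a peak in the Cdh15 window, placed by the distance of its region from the start site in kb (x axis) and by library (y axis), with an area proportional to fold enrichment and a heavy outline where the peak is in the list of equal length. The region in the first intron is present in all 14 libraries and outlined in all 8 GM libraries but only 1 of the 6 DM libraries.

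The other Cdh15 regions had a peak in fewer libraries and a worse median rank by −log10 p. Their median fold enrichment as deposited was mostly not lower. It was 6.70 at the start site and 8.49 at 12.8 kb upstream, against 6.55 in the intron. Only the region 18.4 kb upstream was below the intron, at 5.54. The start-site region, in the first exon (chr8:122848210-122848469), was detected in every dox-treated library, in GM no dox replicates 2 and 4 and in DM no dox replicate 4. The libraries without it had the shortest lists, 14710 to 24181 peaks, against 36531 or more in those with it. The part of list length in this pattern was not tested. Its scaled fold enrichment ran from 3.19 to 7.02 where present. Both ends were in GM +dox libraries, and GM no dox had 5.555 and 5.625. The neighbouring intron region (chr8:122850638-122851023) was missing only from DM no dox replicate 2 and was in the lists of equal length of 5 libraries.

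Cdh23 held the other region with a pileup call in both arms. In the intron whose sequence is shown, scaled pileup was 63.3, 62.5, 63.6 and 62.1 fragments in GM no dox and 42.3, 40.5 and 35.1 in DM no dox. It was 72.0, 79.5, 75.6 and 62.3 in GM +dox and 46.3, 41.8 and 30.4 in DM +dox, so that GM and DM libraries did not overlap in either arm. On the log2 scale the pileup fell by 0.68 without dox (SE 0.18, limma adjusted p = 0.0433) and by 0.89 with dox (SE 0.18, adjusted p = 0.00553). With the replicate number as a block, the changes were −0.68 (limma adjusted p = 0.0021) and −0.89 (limma adjusted p = 3.9e-05). That fit called 14% and 15.5% of all regions. Fold enrichment changed by −0.19 (adjusted p = 0.615) and −0.40 (adjusted p = 0.263), which did not pass. The region was among the 14710 strongest peaks in all 14 libraries. Without the block, the no-dox pileup call was lost on leaving out any of 10 of the 14 libraries in turn (limma adjusted p up to 0.198). The call with dox was lost only without DM +dox replicate 4 (limma adjusted p = 0.0642).

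**Figure D3:**
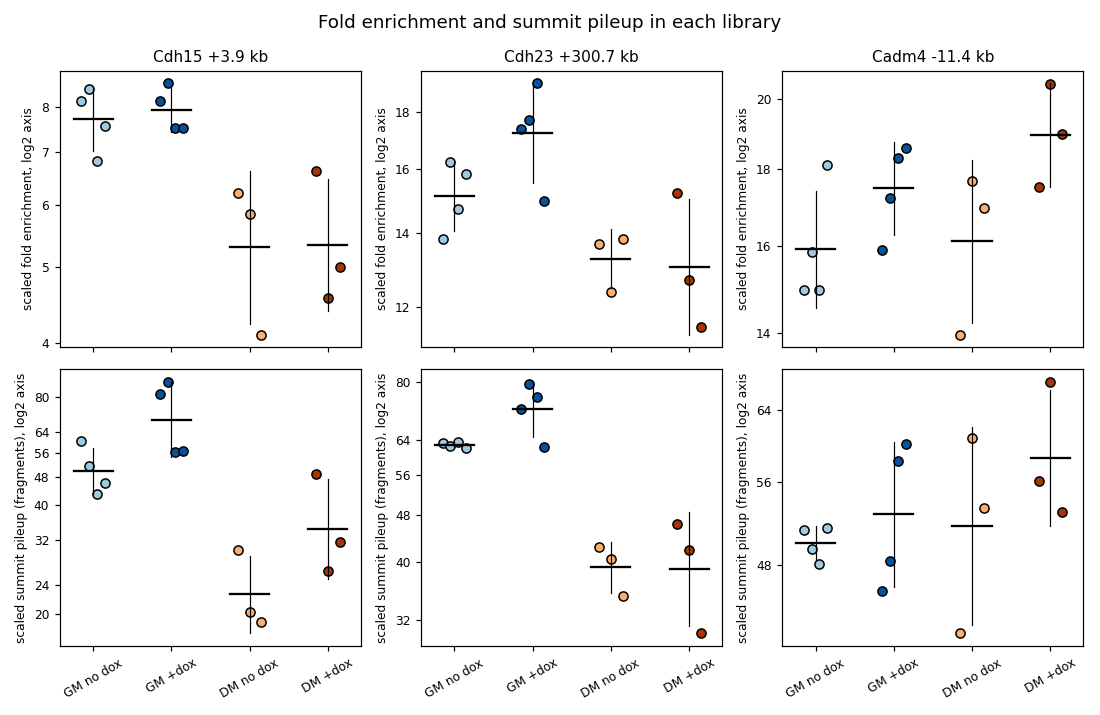
Scaled fold enrichment (top) and scaled summit pileup in fragments (bottom), both on log2 axes, in each library of the 4 groups, with the mean of the log2 values as a bar and 1 SD as a line. At the Cdh15 and Cdh23 introns the pileup of every DM library lies below that of every GM library of the same arm, while the Cadm4 upstream region shows no such separation.

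The Cadm4 upstream region, 11.4 kb before the start site, was among the 14710 strongest peaks in all 14 libraries and had the highest median fold enrichment as deposited of any member region, 19.0. Its scaled fold enrichment was 14.9 to 18.1 in GM no dox, 15.9 to 18.6 in GM +dox, 13.97 to 17.6 in DM no dox and 17.5 to 20.5 in DM +dox. These ranges overlapped in each comparison. The log2 difference of DM against GM was 0.017 without dox (SE 0.12, limma adjusted p = 0.969) and 0.12 with dox (SE 0.12, adjusted p = 0.858). At the Cadm4 start site the scaled fold enrichment was 8.38, 6.27 and 10.2 in DM +dox. It was 6.55 in the 1 DM no dox library with a peak, 5.52 to 6.60 in GM no dox and 3.23 to 5.96 in GM +dox where present. The DM +dox values overlapped those of GM no dox but all lay above those of GM +dox. The region, missing from 3 libraries, was not tested.

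Ncam1 had 5 regions with a peak in every library, the most of any member. In the intron whose sequence is shown, scaled fold enrichment was 10.2 to 13.6 in GM no dox, 10.4 to 13.3 in GM +dox, 8.61 to 13.2 in DM no dox and 7.60 to 10.1 in DM +dox. The GM +dox and DM +dox ranges did not overlap, and the log2 difference of −0.31 (SE 0.17, limma adjusted p = 0.651) did not pass. The log2 pileup difference with dox was −0.60 (SE 0.24, limma adjusted p = 0.160), which did not pass either. With the replicate number as a block it passed at −0.64 (SE 0.17, limma adjusted p = 0.00593), in a fit that called 15.5% of all regions. Cdh2 had 4 regions with a peak in every library. At its start site the scaled fold enrichment was 7.93 to 11.2 in GM no dox, 6.64 to 8.58 in GM +dox, 7.14 to 9.97 in DM no dox and 6.14 to 8.17 in DM +dox, with no call in any comparison. In the second intron, about 64 kb from the start site, it was 9.05 to 11.4, 8.94 to 12.5, 8.60 to 14.5 and 8.17 to 9.97 in the same order, again with no call for fold enrichment. Elsewhere in the second intron (chr18:16703733-16705140) the log2 pileup difference between DM and GM was −0.83 without dox (limma adjusted p = 0.0869). With dox it was −0.78 (limma adjusted p = 0.0873), and both were short of a call. With the replicate number as a block it passed in both arms, at −0.71 without dox (limma adjusted p = 0.019) and −0.66 with dox (adjusted p = 0.0268), in fits that called 14% and 15.5% of all regions.

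Itga3, Mcam and Vcam1 had no region with a peak in every library, so none entered the fit. The Itga3 start-site region (chr11:95076103-95077081) was missing only from GM no dox replicate 1 and DM no dox replicate 2, with a scaled fold enrichment of 6.01 to 9.93 where present. The strongest region in the Itga3 window was at the start site of the neighbouring gene Pdk2. The best ranked Itga3 region away from start sites, 20.1 kb upstream, had a peak in 11 libraries. Mcam had a peak 4.4 kb upstream in 10 libraries, with a scaled fold enrichment of 3.62 to 7.60.

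Over the 14 tested members, fold enrichment gave 0 calls in differentiation without dox (0.308% of all regions were called) and 0 with dox (0.253%), with an unadjusted p under 0.05 at 3 and 4 members. The median log2 change was −0.15 without dox and −0.22 with dox, against 0.0074 and 0.0062 over all 11046 regions. In DM, 9 and 12 of the 14 were lower (48.4% and 48.7% of all regions were). Summit pileup gave 2 calls in each arm, both lower, the Cdh15 and Cdh23 introns (2.77% of all regions were called without dox and 4.93% with dox), and the member medians were −0.30 and −0.62 against 0.018 and 0.023 over all regions. With the replicate number as a block, the pileup calls with dox rose from 2 to 10, all lower, at Cdh15, Cdh2, Cdh23 and Ncam1, while the calls over all regions rose from 545 to 1711 (15.5%).

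**Figure D4:**
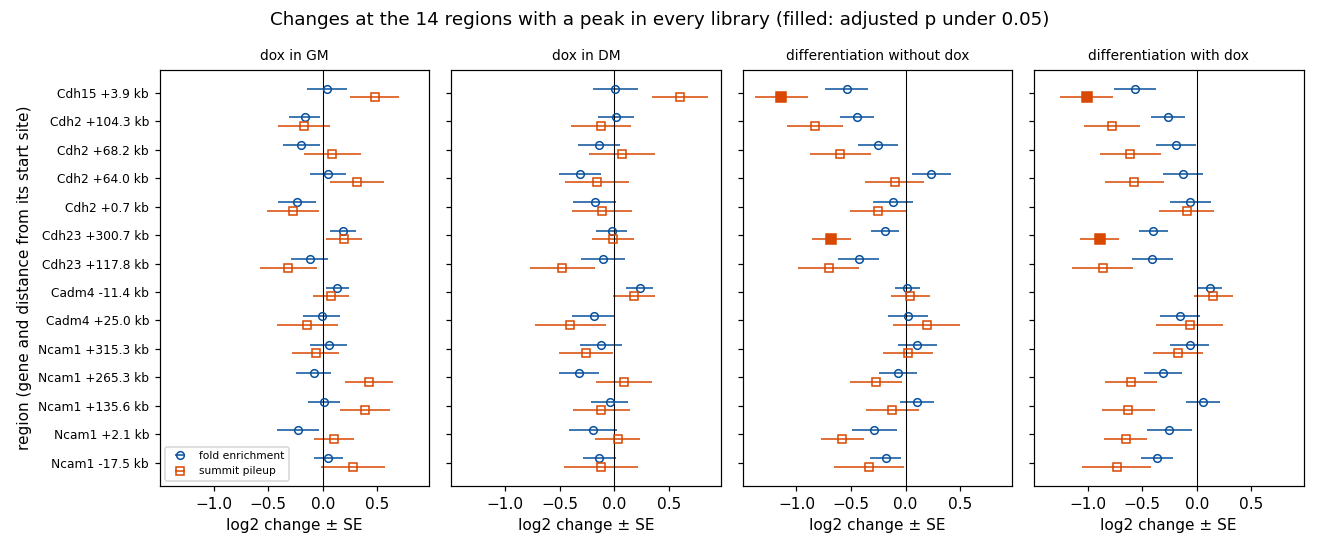
Log2 change ± SE (x axis) of fold enrichment (circles) and summit pileup (squares) at the 14 tested regions (y axis) in the 4 comparisons, with filled symbols for an adjusted p under 0.05. The only filled symbols are the pileup squares of the Cdh15 and Cdh23 introns in the 2 differentiation comparisons, from −0.68 to −1.14.

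In lists of equal length, the Cdh15 intron was the 1 member of 32 that was lower in differentiation without dox (1.04% of all regions were), and 0 were higher (0.986%). Of 28 members in the arm with dox, 0 were higher (1.11%) and 0 lower (1.11%). The full lists held no such member in either arm. Background shares were 0.205% higher and 0.205% lower for the 76 members compared without dox. For the 102 compared with dox they were 1.49% higher and 0.319% lower.

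Other adhesion genes were examined in the same windows. Fold enrichment changed at 0 of 5 tested regions of 6 other cadherin genes, 0 of 6 of 4 catenin genes, 0 of 12 of 13 other immunoglobulin-type genes and 1 of 16 of 13 other integrin genes, over the 4 comparisons. The 1 region (chr8:128666580-128667265) lies upstream of Itgb1, the β1 subunit with which Itga3 pairs. Fold enrichment there fell by 1.12 on the log2 scale in differentiation with dox (SE 0.21, limma adjusted p = 0.0179). Summit pileup there fell by 2.41 on the same scale (SE 0.39, limma adjusted p = 0.00132), in a fit that called 4.93% of all regions.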

How the data were processed

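ATAC-seq libraries of C2C12 iMyoD1 cells were analysed from narrow peak lists. The authors processed the reads with nf-core/atacseq against mm10, removed blacklisted regions and called peaks with MACS2 in each library separately (version not given in the sources used here). Each deposited list gives a score, a fold enrichment (a ratio of summit pileup to local background), and the −log10 of p and q as the authors' caller wrote them.

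Peaks of 14 libraries were merged where they overlapped (80290 regions). MACS2 computes fold enrichment and p from pileup and background, so both were solved for every peak. Only whole-number pileups were searched, and the misfit was under 0.01 in −log10 p for 100% of peaks. Log2 values at the 11046 regions with a peak in all 14 libraries were centred by the median difference from the mean library and fitted with limma 3.58.1 (R 4.3.3) with 4 group means and a trended prior. The fit was tested on simulated data with independent noise in each library, which does not cover deviations shared by same-numbered libraries. The fit on summit pileup was listed as an alternative to that on fold enrichment. Its own repeats (replicate block, quantile normalization, each library left out) were added after seeing the data. Pileups cover counting error only, and p-values measure the spread between these libraries.

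Deviations of same-numbered libraries from their group means correlated at 0.17 to 0.28 for dox in GM, 0.19 to 0.36 for dox in DM and 0.19 to 0.46 for differentiation with dox, which was taken as pairing, and at 0.098 to 0.46 for differentiation without dox, where the lowest was under 0.1. The labels say nothing of what a number shares.

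Named regions were, for each gene, the start-site region found in most libraries, all-or-none regions in lists of equal length, called regions, and the best ranked region over 1 kb from every start site. Other regions named in the text were chosen after their values were seen. The members and lists were chosen with earlier results of these data known. Genes came from GENCODE M21 and sequences from GRCm38. No sequence of Cdh2 is reported here.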

Additional observations from a re-analysis of the deposited data

Results flagged for a closer look

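The 2 DM libraries left out of the comparisons also held peaks at the adhesion genes. DM +dox replicate 1 had a peak at 15 of the 105 regions, 8 of them among the 14 found in every other library, and DM no dox replicate 1 had a peak at 1, in the Ncam1 window. Their whole lists held 14236 and 1287 peaks.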

How the results depend on the processing

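The count of member regions with a changed fold enrichment stayed at 0 in the 4 comparisons under each alternative run, the replicate block included, except that summit pileup gave 2 in both differentiation comparisons. For pileup, the replicate block gave 5 members in differentiation without dox (Cdh15, Cdh23, Ncam1 and 2 regions of Cdh2), 10 with dox and 1 for dox in DM, while it called 1545, 1711 and 667 of all 11046 regions. Setting numbers 1 and 2 against 3 and 4 gave 5 with dox (1099 of all regions), and keeping only regions in all lists of equal length gave 1 in each differentiation comparison. On leaving out each library, pileup gave 0 to 2 without dox (0 without DM no dox replicate 3 or 4) and 0 to 5 with dox (0 without DM +dox replicate 4, 5 without GM +dox replicate 4).

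Leaving out each library gave 1 to 2 members all-or-none in lists of equal length for dox in DM, 1 to 2 for differentiation without dox and 0 to 2 with dox. With all deposited peaks, or all with −log10 q of at least 2, dox in GM gave 1, dox in DM 4 and differentiation without dox 0. With all 16 libraries dox in DM gave 0. Lists shortened further gave 0 for differentiation without dox. Ranking by fold gave 2 for dox in DM and 2 for differentiation with dox. Regions with a peak in every library numbered 0 with all 16 libraries and 2 in lists of equal length.

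Over all regions, fold enrichment calls in differentiation without dox went from 34 to 163 with the block, 94 with numbers 1 and 2 against 3 and 4, 5 with all 16 libraries and 1 in strong regions, and from 0 to 58 on leaving out each library (0 without DM no dox replicate 3). With dox they went from 28 to 120, 60, 17 and 0 in the same order, to 5 with quantile normalization and 99 with no filter, and from 4 to 62 on leaving out each library. Dox in DM went from 2 to 55 with the block.

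Directions turned only at changes that had not passed the test, given here on the log2 scale. In differentiation without dox, Cdh2 at 64 kb was −0.10 in pileup, and the Cadm4 upstream region was −0.020 with the block and −0.023 with quantile normalization. With dox, Cdh2 at 64 kb was 0.0037 with all 16 libraries and the Cdh2 start site 0.025 with quantile normalization. For dox, the Cdh23 intron in DM was 0.040 with all 16 libraries, and the Ncam1 intron in pileup was 0.43 in GM and 0.093 in DM. Leaving out each library, the Cdh15 intron ran from −0.020 to 0.082 for dox in GM and from −0.18 to 0.12 in DM, Cdh2 at 64 kb from −0.057 to 0.12 for dox in GM, and the Cdh23 intron from −0.13 to 0.067 for dox in DM. In differentiation, the Cdh2 start site ran from −0.13 to 0.071 with dox, and without dox the Cadm4 upstream region ran from −0.049 to 0.12 and the Ncam1 intron from −0.18 to 0.13. The cause of these moves was not tested. Depth limits presence most in the short lists.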
